A study of Mus musculus with 12 samples.

Results

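The genes described here encode the protein components of the mitochondrial ribosome (mitoribosome). Members were all genes whose platform symbol begins with Mrpl or Mrps followed by a digit, each read from a single transcript cluster, the one with 1 symbol and the highest mean over the 12 arrays. This gave 77 of the 19938 genes tested, on 85 such clusters in all. By what is known of these proteins, 50 of the 77 belong to the large subunit and 26 to the small subunit. Mrps18a and Mrps30 are counted with the large subunit, where their proteins lie despite the names. Mrps36 matches the name rule, but its protein is a subunit of the oxoglutarate dehydrogenase complex and not of the mitoribosome. By known homology, 45 members have a bacterial counterpart, 29 were counted as specific to mitochondria and 3 were not assigned. Mrps18b was counted with the 29, although it belongs to the S18 family, in which Mrps18c has a bacterial counterpart. Mrpl53 was found only on a cluster that it shares with another gene and is not a member.

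RNA came from MLO-Y4, an osteocyte-like cell line from mouse long bone that is 1 clone and carries the SV40 large T antigen driven by the osteocalcin promoter. Cells were kept for 48 h in the bore of a superconducting magnet, whose high field with a large gradient is called LG-HMF, at an apparent gravity of μ-g, 1-g or 2-g, or in an incubator under normal gravity without the magnet (control). Each of the 4 groups had 3 Affymetrix Mouse Gene 1.0 ST arrays. The 1-g position carries the magnetic field at normal gravity, so set 3 (1-g v.s. control) asks about the magnet without a change of gravity, while set 1 (μ-g v.s. control) and set 2 (2-g v.s. control) ask about the magnet and a change of gravity together. Positions within the magnet are compared in set 4 (μ-g against 2-g), in μ-g v.s. 1-g and also in 2-g v.s. 1-g, although the field at the 1-g position is stronger than at the others. Magnetic field, bore and incubator cannot be told apart in the comparisons with the control.

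The mitoribosome translates the few messenger RNAs of the mitochondrial genome, which encode core subunits of the respiratory chain and of ATP synthase. Its ribosomal RNAs are transcribed inside the organelle, whereas every one of its proteins is encoded in the nucleus, made in the cytosol and imported. Mammalian mitoribosomes hold more protein and less RNA than bacterial ones, and the proteins without a bacterial counterpart sit mostly on the outside of the particle.

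The values were RMA-normalized log2 intensities, in which a difference of 1 is a doubling, and levels are compared only within a gene. Pearson's r across clusters lay between 0.9965 and 0.9982 for arrays of the same group and between 0.9946 and 0.9985 for arrays of different groups, and array medians lay between 7.04 and 7.12. All 77 members lay above the median level of the genes, with group means from 7.55 to 12.43. Of the osteocyte markers, Pdpn (mean log2 value 12.22) and Gja1 (12.12) were high, while Dmp1 (5.63), Phex (5.43) and Mepe (5.11) lay above 16.7%, 12.4% and 6.2% of genes, and Sost (7.30) and Fgf23 (6.88) above 47.9% and 42.6%. The replicates are labelled biological, but nothing says that they were separate cultures, and p-values therefore measure only the spread between these arrays, whose number limits the precision. Permuting 3 against 3 arrays exactly has a smallest two-sided p of 0.1, so calls rest on limma, fitted over all genes with Benjamini-Hochberg adjustment over the 19938 genes and called at an adjusted p under 0.05.

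In 2-g cells the mitoribosomal genes were lower than in control cells almost throughout, by a small amount each. The log2 fold change was below 0 for 72 of the 77 members, compared with 51.3% of all genes. Its median was −0.14, a change of −9.3%, beside −0.003 over all genes. Limma called 6 members, all of them lower, whereas 1.43% of all genes fell by the same rule. These were Mrpl2, Mrpl22, Mrps18b, Mrpl55, Mrpl11 and Mrpl3. At an unadjusted P under 0.05, 36 members were lower and none was higher, against 8.1% of all genes lower. In 32 members the 3 arrays of 2-g cells all lay below the 3 control arrays, which held for 11% of all genes. No member reached a change of 1.5-fold, and the log2 fold changes ran from −0.45 to 0.14. In these bulk samples, fewer cells of a kind and less RNA per cell cannot be told apart.

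**Figure D1:**
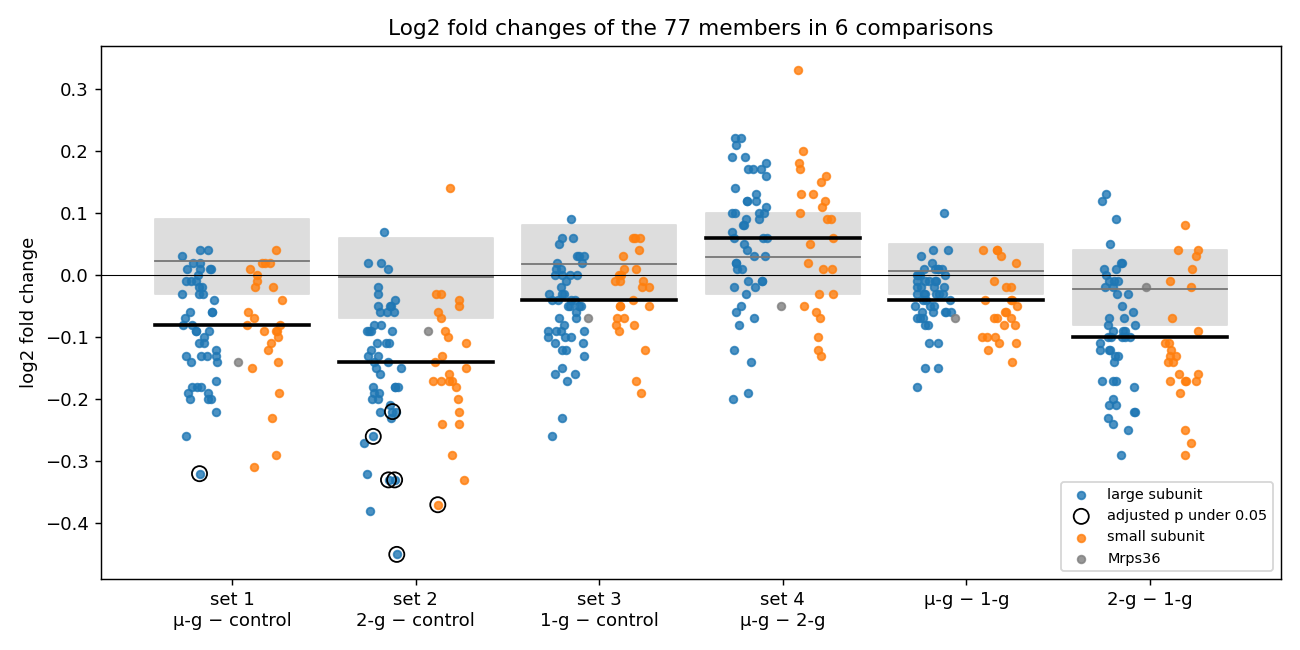
Log2 fold change (vertical axis) of each of the 77 members in 6 comparisons, with the large subunit in blue, the small subunit in orange, Mrps36 in grey, and calls at an adjusted p under 0.05 ringed. Black bars are the members' medians, and the grey boxes and lines give the quartiles and median of all 19938 genes. In set 2 the members' median is −0.14 and 72 of 77 lie below 0.

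Mrpl2, whose bacterial relative lies beside the peptidyl transferase centre, measured 9.71, 9.63 and 9.79 on the 3 control arrays, 9.61, 9.50 and 9.52 in μ-g cells, 9.56, 9.59 and 9.50 in 1-g cells, and 9.40, 9.34 and 9.39 in 2-g cells. All 9 arrays from the magnet lay below the 3 control arrays, and the 2-g arrays below all others. Mrpl2 fell by 0.33 ± 0.05 (SE, n = 3 arrays a group) on the log2 scale in set 2, with an adjusted p of 0.00782 (limma).

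Mrpl22 encodes a protein of the exit tunnel of the large subunit. It measured 8.53, 8.75 and 8.57 in control cells, 8.33, 8.42 and 8.30 in μ-g cells, 8.40, 8.53 and 8.45 in 1-g cells, and 8.16, 8.34 and 8.01 in 2-g cells. The 2-g arrays were the most spread, with an SD of 0.17, yet lay below every control array, and replicate 2 was the highest array of its group in all 4 groups. Mrpl22 had the lowest log2 fold change of the members in set 2 and fell by 0.45 ± 0.08 (adjusted p = 0.0168, limma).

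Mrps18b is one of the mammalian genes of the S18 family, together with Mrps18a and Mrps18c, and its protein lies in the small subunit. Its values were 11.38, 11.37 and 11.51 in control cells, 11.17, 11.31 and 11.08 in μ-g cells, 11.33, 11.36 and 11.21 in 1-g cells, and 11.08, 11.09 and 10.98 in 2-g cells. The 2-g arrays lay below all control and all 1-g arrays, and 1 of the μ-g arrays reached down to them. In set 2 Mrps18b fell by 0.37 ± 0.07 (adjusted p = 0.0169, limma).

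Mrpl55, a large subunit protein, measured 9.57, 9.46 and 9.62 in control cells, 9.20, 9.47 and 9.31 in μ-g cells, 9.31, 9.35 and 9.28 in 1-g cells, and 9.21, 9.16 and 9.29 in 2-g cells. It was lower on 8 of the 9 magnet arrays, and μ-g replicate 2 lay within the control range. Mrpl55 fell by 0.33 ± 0.07 in set 2 (adjusted p = 0.0277, limma).

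Mrpl11 encodes the relative of bacterial L11, at the site where translation factors bind the large subunit. It measured 9.97, 10.06 and 10.08 in control cells, 9.93, 10.02 and 9.91 in μ-g cells, 9.85, 9.99 and 9.99 in 1-g cells, and 9.82, 9.75 and 9.77 in 2-g cells. The 2-g arrays lay below all others, while the μ-g and 1-g arrays overlapped with the control. Mrpl11 fell by 0.26 ± 0.05 in set 2 (adjusted p = 0.0287, limma). Mrpl3, whose protein has an arm that reaches toward the peptidyl transferase centre, measured 11.04, 11.04 and 11.07 in control cells, 10.91, 11.02 and 10.97 in μ-g cells, 10.98, 11.04 and 10.98 in 1-g cells, and 10.74, 10.90 and 10.85 in 2-g cells. The 2-g arrays again lay below all others, and the μ-g arrays lay below the control arrays while the 1-g arrays did not all do so. Mrpl3 fell by 0.22 ± 0.05 in set 2 (adjusted p = 0.0381, limma).

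The members next in the order of P in set 2 did not pass. Their log2 fold changes were −0.32 for Mrpl27 (adjusted p = 0.0573, limma), −0.20 for Mrpl43 (0.0682), −0.38 for Mrpl20 (0.0791) and −0.18 for Mrps18a (0.091), and in each of them the 2-g arrays lay below the control arrays. The 5 members with a log2 fold change above 0 were Mrpl33 (0.01), Mrpl50 (0.02), Mrpl42 (0.02), Mrpl14 (0.07) and Mrps21 (0.14), none of which passed. With the replicate number as a block, 24 members fell, against 4.32% of all genes. This fit takes arrays of the same number as paired, which the labels do not say. Beside the 6 named above these were Mrpl54, Mrpl43, Mrpl27, Mrps9, Mrpl20, Mrpl47, Mrps18c, Mrpl1, Mrpl40, Mrpl21, Mrps22, Mrpl13, Mrps27, Mrps11, Mrps17, Mrpl16, Mrpl36 and Mrpl58. Fitted on the 6 arrays of the 2 groups alone, only Mrpl2 and Mrps18b passed. Only Mrpl2 passed in each fit that left out a single array, and it was the sole call without 2-g replicate 3 and without control replicate 3, while 3 members passed without control replicate 1. Without 2-g replicate 3 the members lower at an unadjusted P numbered 20 in place of 36, and 68 of the 77 had a log2 fold change below 0.

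The genes of both subunits were mostly below 0 in set 2. The large subunit had 46 of its 50 genes below 0, with a median of −0.135, and 5 of them fell. In the small subunit 25 of 26 genes were below 0, with a median of −0.151, and 1 fell. The split by homology was as even. The median was −0.14 over the 45 genes with a bacterial counterpart, of which 4 fell. Over the 29 genes counted as specific to mitochondria it was −0.138, and 1 of them fell, Mrps18b of the S18 family. The differences between these classes were not tested. Of 6 macrophage markers measured, 1 was called in any comparison (Cd68, in set 4 and in 2-g v.s. 1-g), and the mean log2 value of the list lay between 7.06 and 7.11 on the 2-g arrays and between 7.14 and 7.22 on the control arrays. In mean log2 value over 12 arrays, Ptprc (5.68), Adgre1 (5.46) and Itgam (5.87) lay above 17.8%, 13.2% and 21.8% of genes, and Csf1r (7.23), Cd14 (9.05) and Cd68 (9.64) above 47.1%, 67.4% and 75.5%. No marker of 4 for endothelial cells and of 5 for adipocytes was called, although the adipocyte marker Fabp4 (10.73) lay above 88.8% of genes. Of 10 osteocyte and osteoblast markers measured, 1 was called in any comparison. This was Col1a1, which rose in set 2 by 0.41 ± 0.08 (adjusted p = 0.0177, limma) and in 2-g v.s. 1-g by 0.38 ± 0.08 (0.0258). The osteoblast markers Alpl (0.33, 0.0824) and Sp7 (−0.01, 0.948) did not pass in set 2, and Bglap, Runx2 and Spp1 were not measured. The part of these markers in the lower mitoribosomal values was not tested.

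In μ-g cells the shift was smaller and 1 member passed. The log2 fold change in set 1 was below 0 for 63 of the 77 members, compared with 39% of all genes, and its median was −0.083, a change of −5.6%, beside 0.023 over all genes. Mrpl54 was the 1 member called, and 0.386% of all genes fell by that rule. At an unadjusted P under 0.05, 14 members were lower and none was higher, against 4.1% of all genes lower, and in 16 members the μ-g arrays all lay below the control arrays, which held for 5.7% of all genes.

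Mrpl54, a large subunit gene without a bacterial counterpart, measured 10.79, 10.71 and 10.83 in control cells, 10.47, 10.45 and 10.43 in μ-g cells, 10.53, 10.50 and 10.50 in 1-g cells, and 10.71, 10.55 and 10.53 in 2-g cells. The μ-g and 1-g arrays were tight and below every control array, while 2-g replicate 1 stood level with the lowest control array. Mrpl54 fell by 0.32 ± 0.05 in set 1 (adjusted p = 0.0273, limma). Its order of groups was unlike that of Mrpl2 or Mrps18b, since μ-g was its lowest group.

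Mrps34, a small subunit gene specific to mitochondria, followed the same order as Mrpl54. Its values were 9.05, 8.98 and 9.19 in control cells, 8.80, 8.81 and 8.74 in μ-g cells, 8.93, 8.87 and 8.85 in 1-g cells, and 9.01, 8.91 and 8.81 in 2-g cells. The μ-g and 1-g arrays lay below all control arrays, and the 2-g arrays overlapped with them. Its log2 fold change in set 1 was −0.29 ± 0.06 and missed the threshold (adjusted p = 0.0646, limma). The other members among the first 10 by P in set 1 did not pass either. Their log2 fold changes were −0.31 for Mrps10, −0.20 for Mrpl43, −0.23 for Mrps18b, −0.17 for Mrpl2, −0.22 for Mrpl55, −0.26 for Mrpl22, −0.18 for Mrpl17 and −0.19 for Mrps24, with adjusted p-values from 0.0875 (Mrps10) to 0.232 (Mrps24) in limma. The call of Mrpl54 in set 1 was lost when the fit used only the 6 arrays of μ-g and control (adjusted p = 0.127, limma) and without any single array of these groups other than μ-g replicate 2, with adjusted p-values between 0.0576 (without control replicate 2) and 0.103 (without μ-g replicate 3). The members lower at an unadjusted P numbered 14, but 9 when μ-g replicate 1 was left out and 22 when replicate 2 of that group was.

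**Figure D2:**
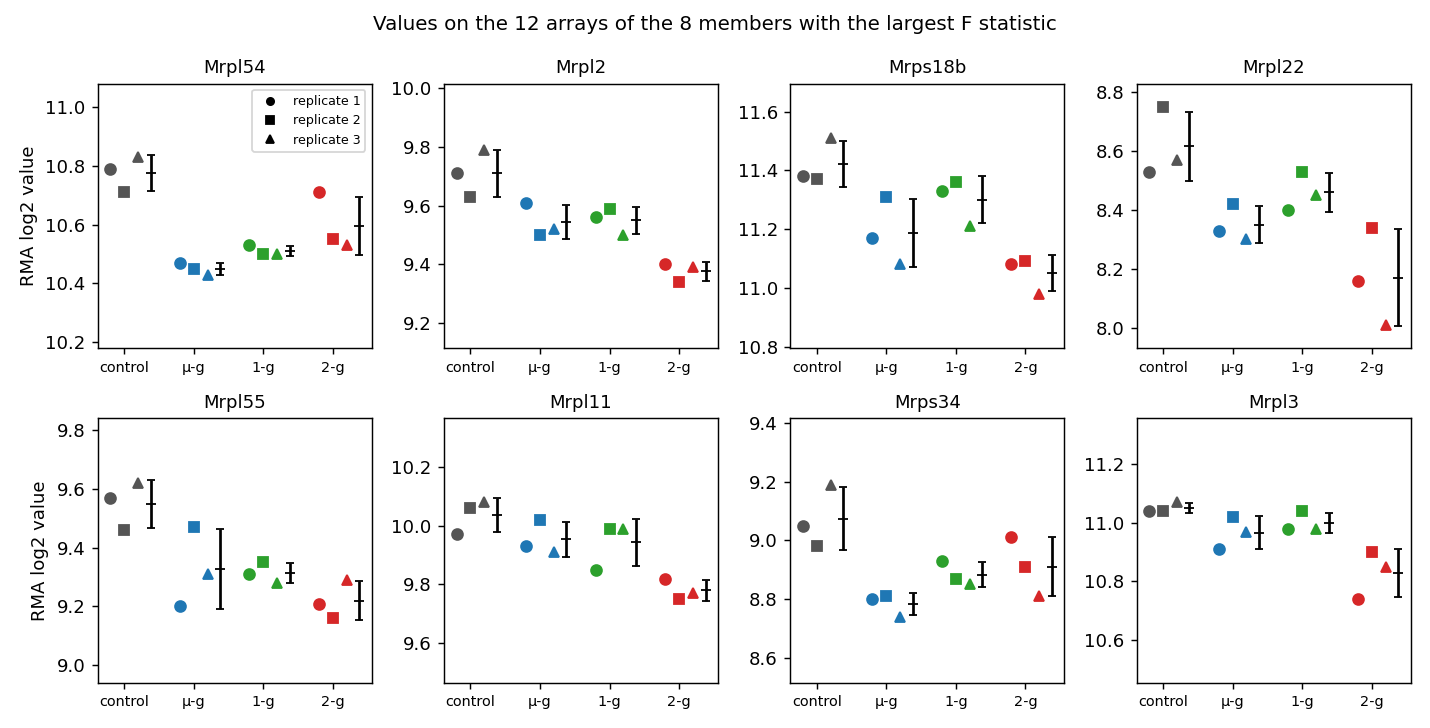
RMA log2 values (vertical axis, 0.9 log2 units in each panel) on the 12 arrays for the 8 members with the largest F statistic, by group, with a symbol for each replicate number and bars for the mean ± SD of 3 arrays. Mrpl2, Mrps18b, Mrpl22, Mrpl55, Mrpl11 and Mrpl3 have their lowest mean in 2-g cells, and Mrpl54 and Mrps34 have theirs in μ-g cells.

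In 1-g cells, which stayed at normal gravity inside the magnet, no member was called by limma, while 0.321% of all genes were. The log2 fold change in set 3 was below 0 for 55 of 77 members, compared with 41.6% of all genes, with a median of −0.044 beside 0.017 over all genes. Unadjusted, 6 members were lower, against 3.03% of all genes, and none was higher. These 6 were Mrpl54 (−0.26, limma adjusted p = 0.0714), Mrpl55 (−0.23), Mrpl2 (−0.16), Mrps34 (−0.19), Mrpl43 (−0.15) and Mrps10 (−0.17), and the next by P were Mrpl17 (−0.11), Mrpl40 (−0.13), Mrpl22 (−0.16) and Mrpl57 (−0.12). With the replicate block Mrpl54 fell in set 3 (adjusted p = 0.0273, limma), as did 0.737% of all genes, and the members lower at an unadjusted P numbered 13. Their number was 11 with quantile normalization and 3 without control replicate 3. Shares of all genes lower at an unadjusted P were not taken under these settings or with the block. Sets 1, 2 and 3 share the same 3 control arrays, and their values are given side by side only.

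Within the magnet, where the control arrays play no part in the fold changes, the 2-g group was again the lower one. The control arrays still enter the spread from which limma takes P. In 2-g v.s. 1-g the log2 fold change was below 0 for 64 of the 77 members, compared with 60.5% of all genes, with a median of −0.103 beside −0.023 over all genes. No member passed in limma without the block, while 2.26% of all genes were called, and the methods' t-test with the same adjustment called none either, as in sets 3 and 4. Without adjustment of P, 22 members were lower, against 9.99% of all genes, and in 23 members the 2-g arrays all lay below the 1-g arrays, which held for 13% of all genes. With the replicate block 14 members fell, against 4.36% of all genes. They were Mrps18b, Mrpl22, Mrpl3, Mrps18a, Mrpl27, Mrps9, Mrps7, Mrpl19, Mrpl47, Mrpl37, Mrpl1, Mrps22, Mrps27 and Mrps11. The lowest P without the block was that of Mrps18a, with a log2 fold change of −0.20 ± 0.05 (limma adjusted p = 0.0675, and 0.0417 with the block). The others among the first 10 by P were Mrps18b (−0.25), Mrpl22 (−0.29), Mrpl2 (−0.17), Mrpl37 (−0.21), Mrpl3 (−0.17), Mrpl19 (−0.24), Mrps7 (−0.17), Mrpl47 (−0.25) and Mrps9 (−0.16).

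Mrps18a, of the S18 family but placed in the large subunit, measured 10.83, 10.76 and 10.90 in control cells, 10.80, 10.87 and 10.78 in μ-g cells, 10.82, 10.89 and 10.86 in 1-g cells, and 10.66, 10.70 and 10.60 in 2-g cells. The 2-g arrays lay below the other 9 arrays, which overlapped with each other. Mrps2, a small subunit gene with a bacterial counterpart, had the same shape, with 9.78, 9.75 and 9.81 in control cells, 9.79, 9.84 and 9.84 in μ-g cells, 9.85, 9.80 and 9.72 in 1-g cells, and 9.65, 9.65 and 9.64 in 2-g cells.

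In set 4 no member was called by limma without the block, while 2.88% of all genes were. The log2 fold change was above 0, that is higher in μ-g cells, for 54 of 77 members, and below 0 for 29.9% of the members, compared with 37.2% of all genes. Its median was 0.062 beside 0.029 over all genes. At an unadjusted P under 0.05, 14 members were higher in μ-g cells, against 11.4% of all genes, and 2 were lower, against 5.75% of all genes. Mrps2 had the lowest P, with a log2 fold change of 0.18 ± 0.05 (limma adjusted p = 0.0604). It was followed by Mrps18a (0.16), Mrpl2 (0.17), Mrpl11 (0.17), Mrps7 (0.16), Mrpl19 (0.21), Mrpl47 (0.22), Mrpl1 (0.22), Mrpl54 (−0.14) and Mrpl37 (0.17). With the replicate block 5 members rose, against 5.28% of all genes, and 1 fell, against 3.9%. Mrps2, Mrps7, Mrpl47, Mrpl1 and Mrps27 were those that rose, and Mrpl33 (log2 fold change −0.20) was the one that fell. Without μ-g replicate 2 the members higher at an unadjusted P numbered 8, without 2-g replicate 3 they numbered 7, and with quantile normalization 9, in place of 14, and Mrpl14 passed at an adjusted p under 0.05 without μ-g replicate 2.

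The μ-g and 1-g groups lay closest to each other. No gene of the array passed in μ-g v.s. 1-g, which puts the share called at 0%, members included. The log2 fold change was below 0 for 60 of 77 members, compared with 46.5% of all genes, with a median of −0.04 beside 0.006. Before adjustment limma gave 1 member (Mrpl32, −0.18, adjusted p = 1), against 0.938% of all genes lower, and the methods' t-test gave 2 lower and 1 higher. That limma count of 1 was 6 without μ-g replicate 2, 3 without 1-g replicate 3, 2 with the replicate block, and 0 without μ-g replicate 1, 2-g replicate 3 or control replicate 3, with quantile normalization and with the trended prior. The next by P were Mrpl41 (−0.15), Mrps10 (−0.14), Mrpl52 (−0.15), Mrpl34 (−0.11), Mrps18b (−0.11), Mrps34 (−0.10), Mrps14 (−0.12), Mrpl44 (0.10) and Mrps24 (−0.10).

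Across all 4 groups the F test of limma called 4 members, Mrpl54 (F = 13.7, adjusted p = 0.023), Mrpl2 (F = 13.6, 0.0237), Mrps18b (F = 10.4, 0.0446) and Mrpl22 (F = 10.1, 0.0471), and 3.15% of all genes. Without adjustment it gave 23 members, against 17.9% of all genes. With the replicate block 15 members were called, against 11.7% of all genes. The F calls depended on single arrays. None was left without control replicate 1 or control replicate 3, 1 was left without μ-g replicate 1, μ-g replicate 3, 2-g replicate 1 or 2-g replicate 3, and 2 were left without 1-g replicate 1, 1-g replicate 2, 2-g replicate 2 or control replicate 2.

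The order of the 4 group means was also read gene by gene. The 2-g group was the lowest of the 4 for 53 of the 77 members (68.8%), compared with 36.4% of all genes. The μ-g group was the lowest for 21 (27.3%), compared with 16.2%. The control group was the highest for 49 members (63.6%), compared with 21.6% of all genes. The 1-g group was the highest for 18 (23.4%), near the 23.0% of all genes. The control was the lowest group for 2 members (2.6%, against 32.3% of all genes), and 2-g the highest for 4 (5.2%, against 22.5%).

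**Figure D3:**
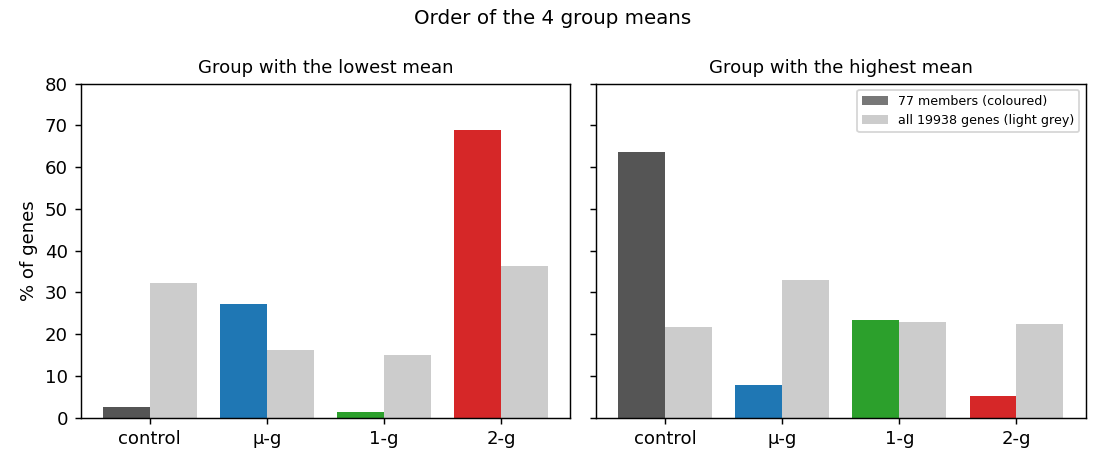
Share of genes (vertical axis, %) for which each group had the lowest mean (left) or the highest mean (right), for the 77 members in colour and for all 19938 genes in light grey. The 2-g group was lowest for 68.8% of members and the control highest for 63.6%.

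Array by array, the members moved with the replicate number as well as with the group. The median deviation of the 77 members from their means over 12 arrays was 0.021, 0.089 and 0.069 on control arrays 1 to 3, −0.067, 0.059 and −0.05 in μ-g cells, −0.041, 0.095 and −0.004 in 1-g cells, and −0.069, −0.03 and −0.124 in 2-g cells. Replicate 2 was the highest array of each group, and the 3 control arrays and the 3 arrays of 2-g cells did not overlap. Over all genes the same medians stayed between −0.016 and 0.031. The labels do not say what the replicate numbers stand for.

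**Figure D4:**
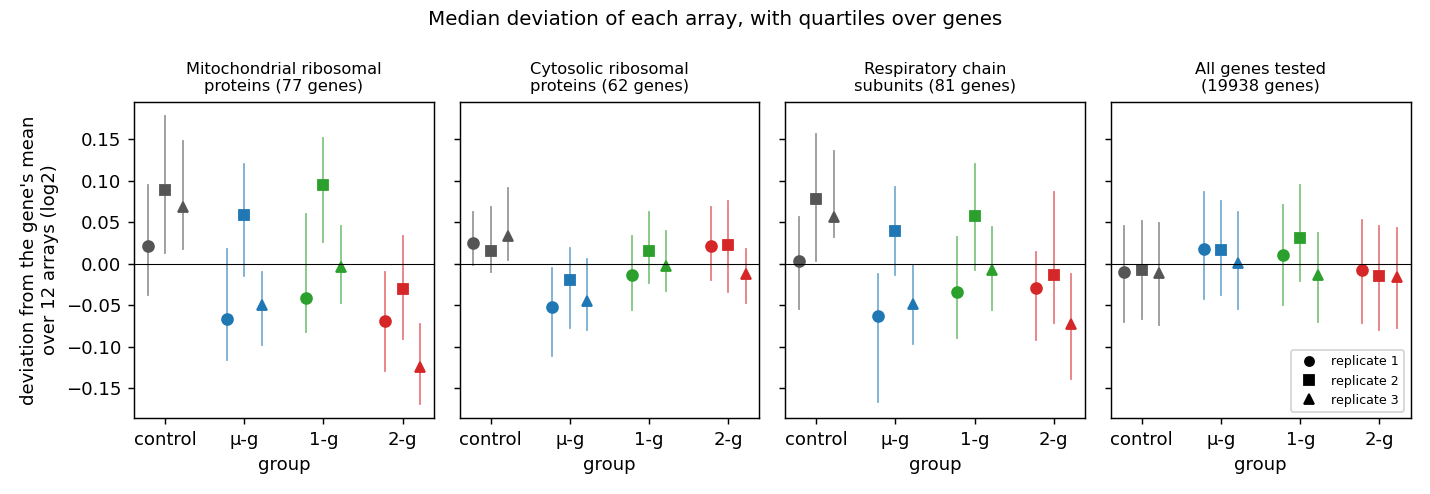
Median (symbol) and quartiles (line) over genes of the deviation from each gene's mean over 12 arrays (vertical axis, log2), for each array, in the 77 members, 62 cytosolic ribosomal protein genes, 81 respiratory chain genes and all genes. For the members, all control arrays lie above 0 and all 2-g arrays below 0, and replicate 2 is the highest array in every group.

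The promoters of the members were searched for the letters of 6 motifs, which the name rule did not use, and each but the motif of SP1 was absent from most of them. RefSeq windows of GRCm38.p6, each 300 bases around an annotated start, were found for 68 of the 77 members. Motifs were searched on both strands, and a match says only that the letters are present. The core of NRF1, a factor of nuclear genes for mitochondrial proteins (GCGCATGC), was in the windows of 8 members (11.8%), compared with 3.0% of the 27025 genes with a window and 6.6% of the 8096 of them above the median level on these arrays. The core of ETS factors including GABPA (CCGGAAG) was in 25 members (36.8%), compared with 9.9% and 21.8%. The core of YY1 (AAGATGGCG) was in 8 members (11.8%), compared with 1.6% and 4.0%. For the E-box of MYC (CACGTG) the shares were 7.4% of members, 8.1% of all genes and 12.4% of genes above the median level. For the hypoxia response element (ACGTG, which is contained in the E-box) they were 23.5%, 21.8% and 30.6%, and for SP1 (GGGCGG) 50%, 38.2% and 72.0%. The windows of Mrpl2, Mrps18b and Mrpl22 are shown because these had the largest F statistics among the members with a window, and that of Mrps18a, chosen after its matches were seen, because it holds an ETS and a YY1 core. Capitals mark matches of the NRF1, ETS, YY1 and E-box letters on either strand. Mrps18b lies at chr17:35916391-35916690 on the minus strand, with NRF1 cores starting 223 bases before and 28 bases after the start and an ETS core 43 bases after it. Mrpl22, at chr11:58171414-58171713 on the plus strand, has an ETS core 53 bases and an NRF1 core 33 bases before the start. Mrpl2, at chr17:46645971-46646270 on the plus strand, has an E-box 131 bases before the start and no NRF1, ETS or YY1 core. Its window also holds the letters of SP1 and of the hypoxia response element, and the window of Mrps18b holds those of SP1. From the other annotated starts of Mrpl2 the E-box lies 139 and 147 bases before. Mrps18a, at chr17:46110754-46111053 on the plus strand, has an ETS core 26 bases before and a YY1 core 11 bases after the start.
Mrps18b: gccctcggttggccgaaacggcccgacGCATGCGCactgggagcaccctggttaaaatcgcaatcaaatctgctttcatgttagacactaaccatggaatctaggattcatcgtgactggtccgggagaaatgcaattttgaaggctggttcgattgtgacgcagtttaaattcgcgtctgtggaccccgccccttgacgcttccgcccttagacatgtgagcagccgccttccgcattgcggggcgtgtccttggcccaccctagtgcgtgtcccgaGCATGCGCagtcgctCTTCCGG
Mrpl22: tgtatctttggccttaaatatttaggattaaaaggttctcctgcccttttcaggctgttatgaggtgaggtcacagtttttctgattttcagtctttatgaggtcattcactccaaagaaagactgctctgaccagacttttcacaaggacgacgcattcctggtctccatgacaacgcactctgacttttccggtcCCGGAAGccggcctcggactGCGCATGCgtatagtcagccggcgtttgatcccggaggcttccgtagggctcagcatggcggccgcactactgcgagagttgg
Mrpl2: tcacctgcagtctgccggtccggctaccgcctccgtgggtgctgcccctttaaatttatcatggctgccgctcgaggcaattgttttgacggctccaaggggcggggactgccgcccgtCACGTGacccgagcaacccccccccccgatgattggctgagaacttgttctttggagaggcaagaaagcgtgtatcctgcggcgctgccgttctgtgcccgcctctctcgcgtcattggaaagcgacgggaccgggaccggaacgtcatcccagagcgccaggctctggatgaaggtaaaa
Mrps18a: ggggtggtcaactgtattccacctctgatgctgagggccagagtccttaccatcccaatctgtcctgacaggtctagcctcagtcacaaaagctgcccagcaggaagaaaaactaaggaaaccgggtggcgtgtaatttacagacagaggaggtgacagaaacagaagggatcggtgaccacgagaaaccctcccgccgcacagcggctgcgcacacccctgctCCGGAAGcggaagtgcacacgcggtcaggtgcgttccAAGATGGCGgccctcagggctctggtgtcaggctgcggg

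Other genes of mitochondrial gene expression were read from lists, and none of these list differences was tested. The 4 measured mitoribosomal genes outside the name rule had a median log2 fold change of −0.129 in set 2 and −0.059 in set 1, and none passed. Of 27 genes for assembly of the mitoribosome and modification of its RNA, 24 were below 0 in set 2, with a median of −0.1, and 2 fell. These were Mrm3, a methyltransferase of the large ribosomal RNA (−0.32 ± 0.07, limma adjusted p = 0.037), and Trub2, a pseudouridine synthase (−0.19 ± 0.05, 0.0464). Of 19 mitochondrial aminoacyl-tRNA synthetase and amidotransferase genes, 12 were below 0 in set 2, with a median of −0.12, and Rars2, the arginyl-tRNA synthetase, fell (−0.44 ± 0.08, 0.0136). Of 20 genes for mitochondrial transcription and mRNA handling, 19 were below 0 in set 2, with a median of −0.142, and 2 fell, Elac2, which cuts the 3′ ends of tRNAs (−0.27 ± 0.06, 0.0309), and Tbrg4, which acts on mitochondrial mRNA (−0.38 ± 0.09, 0.0424). The 14 translation factors were split evenly, 7 below 0, with a median of 0.007 in set 2 and no call. The 5 genes for membrane insertion of the products had a median of −0.122 and no call.

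In set 1 the medians of these lists were −0.059 for the mitoribosomal genes outside the name rule, −0.024 for membrane insertion, −0.003 for assembly and modification, 0.008 for the synthetases, 0.003 for transcription and mRNA handling and 0.076 for translation factors, beside −0.083 for the members, and no gene of them passed. In set 3 Cars2, the cysteinyl-tRNA synthetase, rose (0.28 ± 0.05, limma adjusted p = 0.0416), and no other gene of these lists passed. In set 4, 5 genes of these lists rose, while 1.38% of all genes did. They were Lrpprc, which stabilizes mitochondrial mRNA (0.53 ± 0.08, 0.00649), Rars2 (0.35 ± 0.08, 0.0333), Gfm1, the elongation factor G of mitochondria (0.32 ± 0.07, 0.0276), Pnpt1, an RNA-degrading exoribonuclease (0.30 ± 0.07, 0.0475), and Trub2 (0.21 ± 0.05, 0.0311). In 2-g v.s. 1-g Lrpprc (−0.44 ± 0.08, 0.0196), Rars2 (−0.34 ± 0.08, 0.045) and Letm1, a protein of the inner membrane (−0.26 ± 0.06, 0.0418), fell. Medians in set 4 were 0.152 for transcription and mRNA handling, 0.118 for the synthetases and 0.097 for membrane insertion. They were 0.077 for assembly and modification, 0.074 for translation factors and 0.01 outside the name rule, beside 0.062 for the members. In the same order, medians in 2-g v.s. 1-g were −0.158, −0.147, −0.097, −0.098, −0.092 and −0.106, beside −0.103. The shift within the magnet was thus not particular to the members.

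**Figure D5:**
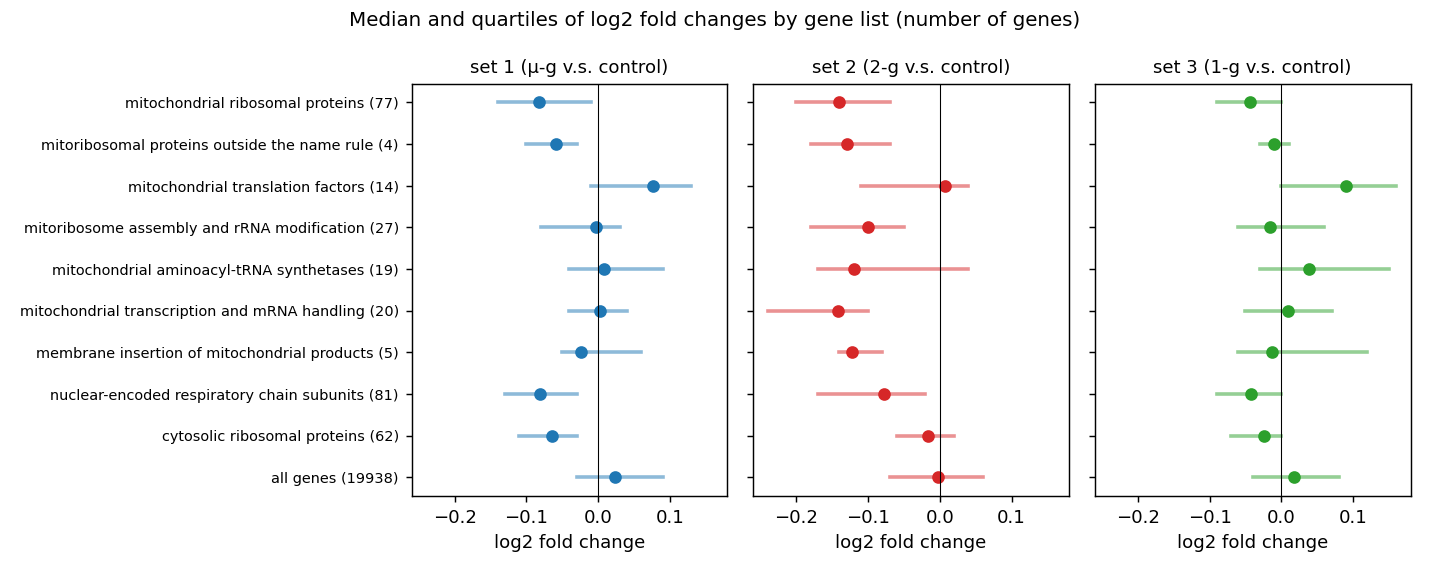
Median (point) and quartiles (line) of the log2 fold change (horizontal axis) in sets 1, 2 and 3 for the members, the other lists of mitochondrial gene expression, 81 respiratory chain genes, 62 cytosolic ribosomal protein genes and all genes, with the number of genes in parentheses. In set 2 the members have a median of −0.14 and the cytosolic ribosomal proteins −0.017. In set 1 the corresponding medians are −0.083 and −0.065.

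Set beside the other ribosome of the cell, the members differed in which group was low. The 62 cytosolic ribosomal protein genes had a median log2 fold change of −0.065 in set 1, −0.017 in set 2 and −0.024 in set 3, where the members had −0.083, −0.14 and −0.044. In set 4 the medians were −0.049 for the cytosolic genes and 0.062 for the members, of opposite sign, and in 2-g v.s. 1-g they were 0.014 and −0.103. Rpl12, which encodes the cytosolic relative of Mrpl11, was the 1 cytosolic gene called, and fell in set 1 (−0.29 ± 0.05, limma adjusted p = 0.0326) and in set 2 (−0.25 ± 0.05, 0.029). Below 0 in set 1 were 90.3% of the cytosolic genes and 86.4% of the respiratory chain genes, beside 81.8% of the members. In the same order, these shares were 75.8%, 71.6% and 71.4% in set 3, and 85.5%, 81.5% and 77.9% in μ-g v.s. 1-g. In set 2 they were 64.5%, 79.0% and 93.5%. The 81 nuclear genes of the respiratory chain had medians of −0.081 in set 1, −0.078 in set 2 and −0.042 in set 3. Among them Ndufa4 fell in set 2 (−0.40 ± 0.06, 0.005), while its paralog Ndufa4l2, a gene induced by low oxygen, rose in set 2 (1.60 ± 0.34, 0.0286) and fell in set 1 (−2.12 ± 0.34, 0.0257) and set 3 (−2.04 ± 0.34, 0.0391). Cox7a1 fell in set 1 (−1.40 ± 0.17, 0.0124) and set 3 (−1.24 ± 0.17, 0.0272). In set 4 the respiratory chain genes Ndufa4l2 (−3.72 ± 0.34, 0.000159), Cox7a1 (−1.88 ± 0.17, 0.000159), Cox4i2 (−0.82 ± 0.14, 0.00786) and Ndufv3 (−0.61 ± 0.12, 0.0213) fell and Ndufa4 rose (0.32 ± 0.06, 0.0124). In 2-g v.s. 1-g Ndufa4l2 (3.64 ± 0.34, 0.000241), Cox7a1 (1.72 ± 0.17, 0.000343) and Cox4i2 (0.91 ± 0.14, 0.00469) rose and Ndufa4 fell (−0.32 ± 0.06, 0.0138). The log2 fold changes of the members lay between −0.45 and 0.33 in all 6 comparisons.

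For 8 members a second cluster with the same symbol was at hand, and its values differed from those of the cluster used by gene. Mrpl27 had log2 fold changes of −0.32 and −0.25 in set 2 on its 2 clusters, and Mrps5 −0.16 and −0.10. Mrpl47 had −0.20 and −0.09 in set 2, 0.22 and 0.05 in set 4, and −0.25 and −0.10 in 2-g v.s. 1-g, so the cluster that was not used gave the smaller differences. Mrpl41 likewise had −0.19 and −0.07 in set 1 and −0.16 and −0.06 in set 2. For Mrpl51 the sign differed in set 2, with −0.11 on the cluster used and 0.08 on the other. In set 1 the values were 0.01 and 0.27, and in set 3 they were −0.0 and 0.33. With the mean over the clusters of a gene, 1 member was higher at an unadjusted P in set 1 and 1 in set 3, where none was on the clusters used.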

How the data were processed

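RNA of MLO-Y4 cells was read on 12 Affymetrix Mouse Gene 1.0 ST arrays. RMA was the normalization of the authors, and the log2 values they deposited for 28856 transcript clusters were used as they stand. No array was left out and 0 columns were unused. Of the clusters, 21789 carry 1 symbol, and the cluster with the highest mean was taken for each of 19938 genes. A mean per group was fitted by lmFit and eBayes of limma 3.58.1 (R 4.3.3) to all clusters, with 8 residual and 3.90 prior degrees of freedom, and P was adjusted over all genes by the Benjamini-Hochberg method. The fit was tested on simulated data with known shifts. Fold changes are differences of mean log2 values.

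The members and gene lists were chosen with earlier results of these data known, so lists are given as counts and medians beside those of all genes, without a test. For each comparison the text names all members past an adjusted p of 0.05 and, where fewer than 10 pass, those of smallest P up to 10. Of the other lists, markers of cell types aside, it names the genes that pass. Values on all arrays are given for the 8 members with the largest F statistic, and also for Mrps18a and Mrps2, chosen after their values were seen. The lists were mitoribosomal proteins outside the name rule, translation factors, assembly and RNA modification, aminoacyl-tRNA synthetases, transcription and mRNA handling, membrane insertion, cytosolic ribosomal proteins, respiratory chain subunits, and markers of osteocytes, macrophages, endothelial cells and adipocytes.

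All groups carry the replicate numbers 1 to 3. After the group means were taken off, arrays with the same number correlated at 0.343 on average, and the others at −0.171. Taking off the group means ties the second value to the first, so it is no separate sign of pairing. Every same-numbered pair of a comparison correlated above 0.1 except that of replicate 3 in set 1 (0.0179), so the numbers were taken to pair the arrays in the other comparisons, from these values alone. The block itself was fitted once over all 4 groups, so taking it for some comparisons and not for set 1 is a choice made from these data. The blocked fit is given in those other comparisons where it moved a count of members by over 1.5 times. The alternatives were the 6 arrays of a comparison alone, the replicate block, genes above the median level, median centring, quantile normalization, a trended and robust prior, the mean over the clusters of a gene, each array left out in turn, unadjusted P, unadjusted P with a 1.5-fold limit and the methods' t-test with adjustment (the study names it beside a table of PCR-checked genes, and limma for its gene filter), and, chosen after seeing the data, a prior from the genes alone. Promoter windows are those of RefSeq for GRCm38.p6.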

Additional observations from a re-analysis of the deposited data

How the results depend on the processing

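The medians of the members kept their sign and moved by less than the spread of array medians within groups (SD 0.057) under all alternatives that were run for them. That spread is wider than the medians themselves in set 3 (−0.044) and μ-g v.s. 1-g (−0.04), so staying within it says little there. Single arrays still moved some of these medians by over 1.5 times: to between −0.079 (without 1-g replicate 2) and −0.024 (without 1-g replicate 3 or control replicate 2) in set 3, with −0.027 without 1-g replicate 1 and −0.068 without control replicate 1, and to −0.074 with quantile normalization. In set 4 the median was 0.029 without μ-g replicate 2 and 0.038 without 2-g replicate 3. In μ-g v.s. 1-g it was −0.084 without μ-g replicate 2, −0.02 without μ-g replicate 1 or 3 and −0.008 without 1-g replicate 2, and in 2-g v.s. 1-g it was −0.06 without 1-g replicate 2. In sets 1 and 2 the medians stayed between −0.116 and −0.061 and between −0.164 and −0.121. Counts of members called depended more on the setting. Shares over all genes were taken only for the main fit and for calls with the replicate block. Other counts under the alternatives show only how the number of members moved. On the 6 arrays alone, set 1 had 0 members and set 2 had 2. With the replicate block there were 24 in set 2, 1 in set 3, 6 in set 4, 14 in 2-g v.s. 1-g and 15 in the F test, as given above. In set 1 there were 5, all of them lower, and 311 of the 19938 genes fell by that rule. The numbers were not taken to pair the arrays there, since those of replicate 3 correlated at 0.0179. Those of replicates 1 and 2 correlated at 0.428 and 0.485. Against the main count of 1, set 1 had 2 members called among genes above the median level and 2 after quantile normalization, in both cases Mrpl54 and Mrps34. Under the methods' t-test with adjustment no member was called in sets 1 to 4, which makes 0 in set 1 and 0 in set 2. At an unadjusted P under 0.05 the counts were 14 in set 1, 36 in set 2, 6 in set 3, 16 in set 4, 1 in μ-g v.s. 1-g, 22 in 2-g v.s. 1-g and 23 in the F test, and with a 1.5-fold limit added they were 0 in set 1 and 0 in set 2. Leaving out 1 array gave 0 to 2 members in set 1, 1 to 6 in set 2, 0 to 1 in set 4 and 0 to 5 in the F test, with 0 in the other comparisons. Of 147 values of the 7 called members under the alternatives, none changed sign and 39 missed the threshold. All 77 members lay above the median level of the genes, and 3 arrays a group limit what could be called.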
